A study of Mus musculus with 16 samples.

Results

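The 16 islet libraries of the series, 16 of 16, were set apart by how much exocrine pancreas RNA they held. Of these, 7 were acinar-rich (Flox17, cKO8, cKO9, cKO12, cKO38, Ctrl2 and Ctrl3) and 9 were acinar-poor (Flox16, Flox20, Flox21, Ctrl1, Ctrl5 and OE1 to OE4). The classes were chosen by the measured levels of acinar transcripts such as Prss2, Cpa1 and Cela2a, so the acinar and insulin levels below describe the classes and are given without a test. Islets came from 4 groups with 4 libraries each. Flox mice carried a B7-H4 gene (Vtcn1) with loxP sites around exon 2 and were fed normal chow. The chow-fed cKO mice carried the same floxed alleles plus Cre recombinase under the rat insulin II promoter (Rip-Cre), so the transgene and the loss of B7-H4 cannot be told apart in these groups. Ctrl and OE mice were Flox mice by the study's methods and wild type by the series' design text, aged 6 weeks when an 8-week course of high-fat diet (HFD) began, and were then infused through the pancreatic duct with AAV2/8-Ctrl or with AAV2/8 carrying B7-H4 under the rat insulin 2 promoter. Islets were freed with collagenase and picked by hand. Nothing in the labels says that the libraries of a group came from separate animals, so a p-value below measures the spread between libraries.

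The values are FPKM, fragment numbers scaled by transcript length and library size, so levels of different genes can be set side by side. The chow and HFD libraries are in separate tables that may have been normalized separately, so tests stay within a table and levels set across tables are descriptions. Read numbers are not given in the sources used here, so the depth behind each value is unknown. Vtcn1 was between 0.0188 and 0.216 FPKM in the Flox libraries and between 0.0202 and 0.125 FPKM in the cKO libraries, too low to check the knockout label. It was between 0.0636 and 0.371 FPKM in Ctrl and between 40.0 and 128 FPKM in OE.

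Acinar cells form most of the pancreas around the islets and make the digestive enzymes, among them trypsinogens (Prss2), carboxypeptidases (Cpa1) and elastases (Cela2a). The transcription factor complex PTF1, which contains Ptf1a and Rbpjl, binds and activates enzyme promoters, and Bhlha15 (Mist1) and Xbp1 maintain the secretory machinery. Islets are small clusters embedded in this tissue, and acinar cells that adhere to them after digestion add their very abundant enzyme transcripts to an islet library.

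The promoters of the marker genes are shown as background, because PTF1 sites are a known feature of acinar enzyme promoters. Why the acinar genes moved together across libraries was not tested. Each window runs from 250 bases before to 50 bases after the gene's start, on the strand of the gene, from RefSeq on GRCm38.p6 (the patched form of mm10, the build of the submitters' processing notes). In the 3 acinar promoters the capitals mark CACCTG (the E-box part of a PTF1 site) and TTTCCC (its TC-box part), and in Ins1 they mark GCCATCTG (an insulin E-box letter run), each on either strand.
Prss2 (chr6:41521526-41521825, plus strand): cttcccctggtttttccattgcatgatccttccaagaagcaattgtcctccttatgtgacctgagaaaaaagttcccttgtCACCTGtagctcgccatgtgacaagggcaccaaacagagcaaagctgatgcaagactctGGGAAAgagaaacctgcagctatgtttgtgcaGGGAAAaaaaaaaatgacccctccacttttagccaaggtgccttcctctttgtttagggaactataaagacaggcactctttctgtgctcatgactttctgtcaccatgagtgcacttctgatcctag
Cpa1 (chr6:30638968-30639267, plus strand): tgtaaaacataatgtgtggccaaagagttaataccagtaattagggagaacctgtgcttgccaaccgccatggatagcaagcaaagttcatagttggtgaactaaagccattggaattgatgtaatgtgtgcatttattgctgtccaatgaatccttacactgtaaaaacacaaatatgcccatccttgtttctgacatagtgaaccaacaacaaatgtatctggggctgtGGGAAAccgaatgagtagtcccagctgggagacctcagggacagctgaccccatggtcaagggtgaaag
Cela2a (chr4:141825956-141826255, minus strand): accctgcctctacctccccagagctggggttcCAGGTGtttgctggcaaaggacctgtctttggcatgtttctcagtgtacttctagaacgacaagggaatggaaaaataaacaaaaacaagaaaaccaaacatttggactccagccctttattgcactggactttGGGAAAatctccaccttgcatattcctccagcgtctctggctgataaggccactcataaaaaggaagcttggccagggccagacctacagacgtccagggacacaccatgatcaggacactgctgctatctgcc
Ins1 (chr19:52264047-52264346, plus strand): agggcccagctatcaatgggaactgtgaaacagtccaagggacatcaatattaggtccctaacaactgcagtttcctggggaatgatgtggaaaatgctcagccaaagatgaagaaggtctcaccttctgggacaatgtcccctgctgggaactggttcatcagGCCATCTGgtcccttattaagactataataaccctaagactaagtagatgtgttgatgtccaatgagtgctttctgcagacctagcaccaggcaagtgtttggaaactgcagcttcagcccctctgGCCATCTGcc
Prss2 and Cela2a held both PTF1 letter runs and Cpa1 held only the TC-box. Promoters were listed for 20 of the 24 acinar enzyme genes, and 13 of these 20 (65%) held CACCTG, 10 (50%) held TTTCCC and 7 (35%) held both. Among all 32851 promoter windows of the same length the shares were 20.2%, 25.25% and 4.86%. The insulin E-box letters were in 1.32% of all windows. A match of letters is not a binding site. Ins2 is not among the windows shown.

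The acinar share was summed over 47 genes (24 enzymes, 16 secretory granule and membrane genes and 7 transcription factors) as a percent of all FPKM in a library. In the Flox libraries it was 29.5% in Flox16, 37.8% in Flox17, 11.5% in Flox20 and 7.98% in Flox21. In the cKO libraries it was 38.7%, 49.1%, 45.8% and 48.4% in cKO8, cKO9, cKO12 and cKO38. In the control-virus libraries it was 5.88% in Ctrl1, 61.0% in Ctrl2, 79.8% in Ctrl3 and 2.34% in Ctrl5, and in OE1 to OE4 it was 15.4%, 12.7%, 13.7% and 11.8%. Group means were 21.7% ± 14.3 (SD, n = 4) for Flox, 45.5% ± 4.76 (SD, n = 4) for cKO, 37.2% ± 39.0 (SD, n = 4) for Ctrl and 13.4% ± 1.52 (SD, n = 4) for OE. Every cKO library was therefore acinar-rich and every OE library acinar-poor, and genotype or virus could be separated from the class only through Flox17 on one side and through Ctrl1 and Ctrl5 on the other. The gap at the boundary was small within Flox, since Flox17 was just inside at 37.8% and Flox16 just outside at 29.5%, against 11.5% for the next Flox library.

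**Figure D1:**
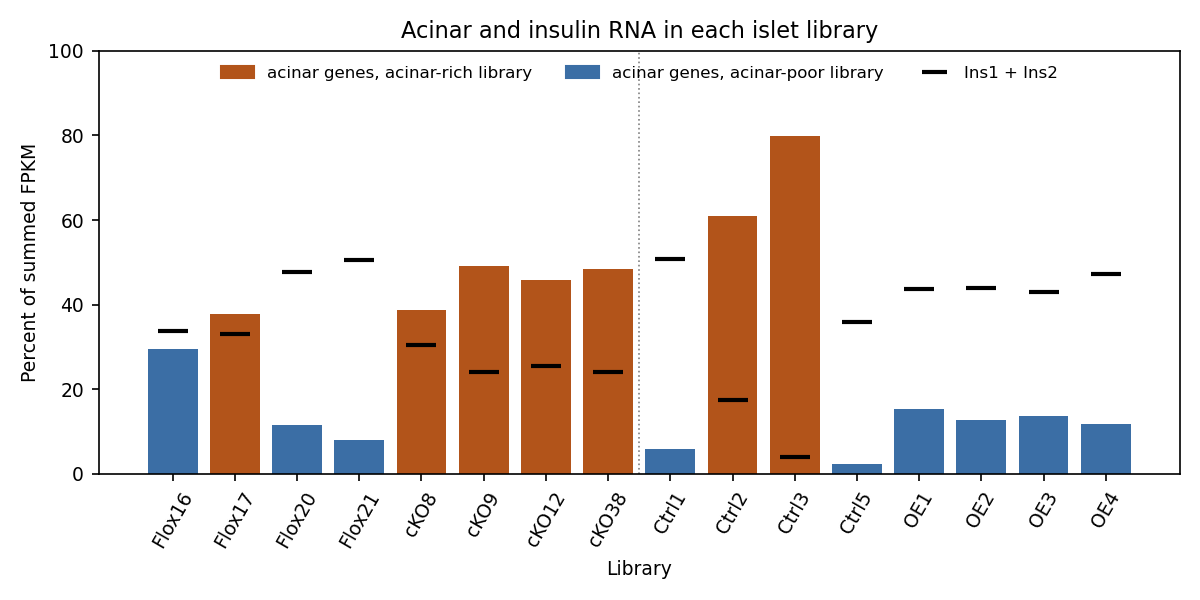
Bars give the summed FPKM of 47 acinar genes and black marks the summed FPKM of Ins1 and Ins2, as a percent of all FPKM, in each of the 16 libraries, with the chow table left of the dotted line. Ctrl2 and Ctrl3 had bars at 61.0% and 79.8%, beside Ctrl1 and Ctrl5 of the same group at 5.88% and 2.34%.

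Elastase 2A (Cela2a, on chr4:141814962-141826160, minus strand) was the most abundant of the acinar markers, at 31411, 41906, 11636 and 8372 FPKM in Flox16, Flox17, Flox20 and Flox21, beside 6273, 68888, 82753 and 2759 FPKM in Ctrl1, Ctrl2, Ctrl3 and Ctrl5. Flox17 was the highest Flox library and the control-virus libraries split without overlap. Trypsinogen Prss2 (chr6:41521787-41525079, plus strand) was at 16183, 23335, 6553 and 4387 FPKM in the same Flox libraries and at 3145, 39551, 54368 and 1128 FPKM in the Ctrl libraries. Carboxypeptidase A1 (Cpa1, chr6:30639218-30645363, plus strand) was at 10030, 12878, 4224 and 2996 FPKM in Flox and at 2404, 29477, 38331 and 897 FPKM in Ctrl. On log2(FPKM + 0.5), acinar-rich minus acinar-poor was 1.59 for Prss2, 1.36 for Cpa1 and 1.53 for Cela2a within Flox, and 4.62, 4.52 and 4.18 within Ctrl.

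The insulin genes were lower in the acinar-rich libraries, by far more within Ctrl than within Flox. Ins2 (chr7:142678656-142743381, minus strand) was at 173310, 192933, 238284 and 250591 FPKM in Flox16, Flox17, Flox20 and Flox21, beside 253857, 108072, 27348 and 181782 FPKM in Ctrl1, Ctrl2, Ctrl3 and Ctrl5. Ins1 (chr19:52264297-52265476, plus strand) was at 66105, 64125, 90297 and 96217 FPKM in Flox and at 99500, 34664, 6888 and 68256 FPKM in Ctrl. The log2 differences were -0.18 for Ins2 and -0.37 for Ins1 within Flox, and Flox17 was inside the range of the acinar-poor libraries for Ins2, and -1.98 and -2.41 within Ctrl, where the classes did not overlap. Together they made up 3.96% of all FPKM in Ctrl3 and between 17.4% and 50.8% in the other libraries. In bulk RNA, fewer cells of a type and less RNA per cell cannot be told apart.

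The abundant enzymes made up similar shares of the summed enzyme FPKM across libraries, with class differences for some. Chymotrypsinogen Ctrb1 was between 14.98% and 17.1% of the summed enzyme FPKM over all 8 chow libraries, Cela2a between 15.1% and 16.5% and Prss2 between 8.11% and 8.92%. Over the HFD libraries, Ctrb1 was between 13.4% and 18.0% and Prss2 between 7.61% and 8.60%. Cela2a was between 13.1% and 14.9% in the acinar-rich and between 16.1% and 18.6% in the acinar-poor HFD libraries, without overlap. Pancreatic lipase (Pnlip) was between 7.74% and 8.29% in the acinar-rich and between 6.81% and 7.65% in the acinar-poor chow libraries. Amylase Amy2a1, which has near-identical copies whose reads can be divided in counting, was lower in the acinar-rich libraries of both tables, at 3.87% to 4.73% against 5.34% to 6.19% in chow and at 2.49% to 2.54% against 2.65% to 3.84% in HFD. Other transcripts differed between the tables. Elastase Cela1 was between 8.19% and 10.9% of the enzyme sum in the chow libraries and between 5.74% and 8.09% in the HFD libraries, and the trypsin inhibitor Spink1 was at 0.285% to 0.363% against 0.102% to 0.137%. Colipase (Clps), a cofactor of pancreatic lipase, was at 4.66% to 5.45% in chow and 6.25% to 9.17% in HFD libraries, and the zymogen granule protein Sycn was at 1.70% to 2.32% in chow and 2.51% to 3.94% in HFD libraries, where it was at 3.26% or more in the acinar-rich and at 3.15% or less in the acinar-poor ones. Diet, virus and table cannot be told apart here.

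Non-acinar genes were lower in the acinar-rich libraries by about the amount by which the non-acinar share was lower. In the chow table the median of 9521 non-acinar genes above 1 FPKM in every library differed from the log2 of the non-acinar share, both taken against the table mean, by between 0.02 and 0.12 on the log2 scale. In the HFD table, with 7472 genes, the gap was between 0.015 and 0.26. The non-acinar share of Ctrl3 was 1.73 below the table mean on the log2 scale and its median gene 1.47 below. For Ctrl2 the values were 0.78 and 0.60 below. Flox17 had the largest gap of the chow libraries, with its median gene 0.18 below the table mean and its share 0.06 below.

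**Figure D2:**
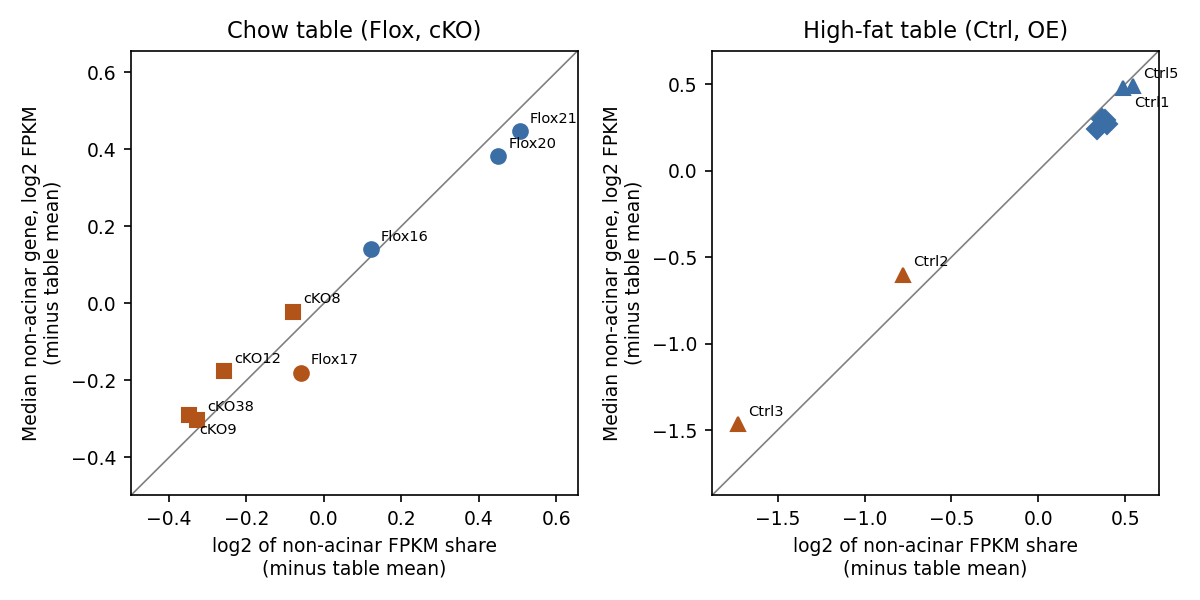
Each point is a library (circles Flox, squares cKO, triangles Ctrl, diamonds OE; brown acinar-rich, blue acinar-poor), with the log2 non-acinar share of FPKM on the x axis and the median log2 FPKM of non-acinar genes on the y axis, both minus the table mean, and the grey line marks equality. Libraries lie near the line, with Ctrl3 at -1.73 and -1.47.

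Over the 11553 genes averaging 0.5 FPKM or more in both tables, the median difference between rich and poor libraries on log2(FPKM + 0.5) was -0.45 within Flox and -1.39 within Ctrl, and -0.86 when the differences of the chow and HFD tables were averaged over all libraries. Without overlap of the classes, 72.6% of all genes were lower and 4.69% higher in Flox17 than in the other 3 Flox libraries, and 92.3% were lower and 3.18% higher in Ctrl2 and Ctrl3 than in Ctrl1 and Ctrl5. Differences below are therefore given relative to the median gene of the same contrast, which was subtracted. On that scale 12.9% of genes were higher and 6.15% lower in the acinar-rich libraries of both groups. These shares are the background of the counts in both groups below. Within Ctrl alone, 29.6% of genes were higher and 22.7% lower on that scale. Since the classes were set on acinar RNA nothing is read from them.

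All 24 enzymes were higher in both groups, by a median of 2.03 within Flox and 5.88 within Ctrl, log2 relative to the median gene. Of the 16 granule and membrane genes, among them the zymogen granule proteins Zg16, Sycn and Gp2, 15 were higher in both groups, with medians of 1.82 and 5.77. The 7 acinar transcription factors were less uniform, with 4 higher in both groups and medians of 0.75 and 3.28. Rbpjl, the acinar subunit of PTF1, was at 20.4, 46.0, 8.67 and 5.73 FPKM in Flox16, Flox17, Flox20 and Flox21, beside 13.8, 116, 195 and 10.1 FPKM in Ctrl1, Ctrl2, Ctrl3 and Ctrl5. Ptf1a was at 11.3, 5.48, 2.93 and 2.29 FPKM in the Flox libraries, highest in Flox16 and not in Flox17, and at 1.28, 9.61, 12.5 and 0.696 FPKM in the Ctrl libraries. Bhlha15 was also highest in Flox16, at 51.9 FPKM against 40.4 in Flox17. Xbp1, which endocrine cells express too, was at 199, 118, 143 and 137 FPKM in Flox and 157, 111, 96.1 and 144 FPKM in Ctrl, lower in the acinar-rich libraries before the median gene was subtracted.

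Ribosomal protein genes, which make the protein part of ribosomes, were higher than the median gene in both groups for 69 of 82, beside the background of 12.9%, with medians of 0.32 within Flox and 0.94 within Ctrl (0.50 without Ctrl3, 1.33 without Ctrl2). On FPKM as deposited the direction was the opposite, with medians of -0.12 and -0.46. Genes of oxidative phosphorylation were higher relative to the median gene in both groups for 31 of 80, with medians of 0.13 and 0.34. Of 15 genes of amino acid and creatine synthesis and transport, 6 were higher in both groups and none lower, with medians of 0.40 and 1.75. The Reg genes, secreted C-type lectins that acinar cells make under stress, differed between the groups. All 6 were higher in Ctrl2 and Ctrl3, beside 29.6% of all genes, by a median of 6.17. The median in Flox17 was 0.74, and 3 of the 6 were higher in both groups, beside 12.9%. Reg2 was at 41.6, 163, 1147 and 820 FPKM in Flox16, Flox17, Flox20 and Flox21, highest in the libraries with the fewest acinar transcripts, and at 1.61, 76.9, 343 and 1.11 FPKM in Ctrl1, Ctrl2, Ctrl3 and Ctrl5.

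Among markers of endocrine and other cells, macrophage genes were most often lower in the acinar-rich libraries of both Flox and Ctrl. With the 4 acinar-rich cKO libraries included, their median over all chow libraries was -0.10 relative to the median gene. It was -0.43 over all HFD libraries. In the same chow split the immediate early genes had a median of -0.07 and the heat shock genes one of -0.64. Within Ctrl, beta cell genes were near the background in lower counts and under it in higher counts. The 22 beta cell genes had a median of -0.03 within Flox and -0.55 within Ctrl, relative to the median gene. Without overlap 6 of 22 were lower and 0 higher within Ctrl, beside 22.7% and 29.6% of all genes, with 1 gene lower in both groups. The 8 alpha cell genes, glucagon (Gcg) among them, had medians of -0.13 and -1.94, with 2 lower in both groups. Within Ctrl 8 of 8 were lower, beside 22.7%. Of 20 genes listed as pan-endocrine, 3 were lower in both groups, with medians of 0.09 and -1.06. Within Ctrl 17 of the 20 were lower, while within Flox 11 were higher and 4 lower. Delta, PP and epsilon cell genes had medians of 0.60 and -2.14. Of the 12 macrophage genes, 8 were lower in both groups, beside the background of 6.15%, with medians of -0.46 and -1.49. Within Ctrl 9 of the 12 were lower, beside 22.7%. Of 11 endothelial genes 3 were lower in both groups, with medians of -0.12 and -1.21. Fibroblast, stellate cell and pericyte genes went both ways within Ctrl, with 2 of 11 higher and 4 lower, beside 29.6% and 22.7% of all genes. Their medians were 0.19 within Flox and -0.40 within Ctrl. Of 12 heat shock genes 4 were lower in both groups, with medians of -0.60 and -0.39. Of 13 immediate early genes 1 was, with medians of -0.39 and -1.15. Within Ctrl 6 of the 12 and 10 of the 13 were lower, beside 22.7%. Duct genes had medians of 0.22 and 0.60 with 5 of 13 higher in both groups. Genes of endoplasmic reticulum chaperones differed in sign, with medians of -0.32 and 0.36.

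**Figure D3:**
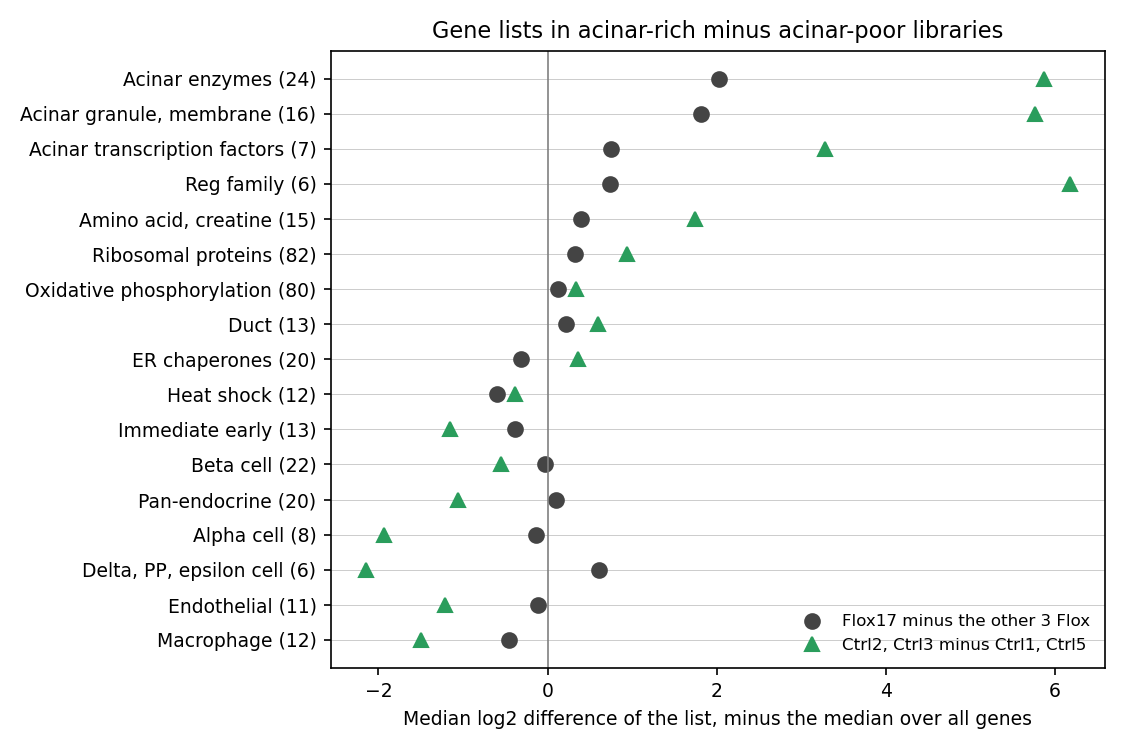
The median log2(FPKM + 0.5) difference of each gene list, minus the median over all genes, is shown for Flox17 minus the other 3 Flox libraries (circles) and for Ctrl2 and Ctrl3 minus Ctrl1 and Ctrl5 (triangles), with the number of genes in brackets. Acinar lists lie right of 0 in both groups, while the alpha cell list is at -0.13 in Flox and -1.94 in Ctrl.

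Ctrl5 stood apart from Ctrl1, with which it forms the acinar-poor side of the control-virus group. Gcg was at 23091, 3470, 889 and 91444 FPKM in Ctrl1, Ctrl2, Ctrl3 and Ctrl5, and the macrophage genes summed to 0.0864%, 0.0236%, 0.0107% and 0.338% of FPKM in these libraries. The antigen presentation gene Cd74 was at 297, 86.9, 32.9 and 1195 FPKM. The beta cell median within Ctrl, -0.55, was -0.35 without Ctrl1, -1.22 without Ctrl2, 0.0094 without Ctrl3 and -0.86 without Ctrl5. In Flox17, the goblet cell genes Clca1 and Tff3 were at 8.09 and 4.63 FPKM, against at most 0.0684 FPKM in the other Flox libraries. They are among 12 listed intestine genes, 9 of them in both tables, which as a whole were not higher in Flox17. Those summed to 0.00445%, 0.00572%, 0.00594% and 0.00585% of FPKM in Flox16, Flox17, Flox20 and Flox21. The part of these other cells in the differences was not tested.

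Outside the acinar lists, the 12 genes with the largest smaller-of-the-pair difference in both groups were Hamp2, Gm5771, Cth, Reg3g, Klk1b24, Ppp1r1b, Amy2a4, Nat8, Gal, Hsd17b13, 2210010C04Rik and Gamt. Hamp2, a hepcidin gene, was at 30.7, 53.5, 9.62 and 3.87 FPKM in Flox16, Flox17, Flox20 and Flox21, beside 8.06, 75.9, 123 and 3.12 FPKM in Ctrl1, Ctrl2, Ctrl3 and Ctrl5. The trypsinogen-like gene 2210010C04Rik was at 5775, 8583, 2338 and 1580 FPKM in Flox and at 1411, 15133, 21751 and 562 FPKM in Ctrl. Cth, which makes cysteine from cystathionine, was at 2.56, 8.34, 1.55 and 0.957 FPKM in Flox and at 0.169, 4.22, 6.38 and 0.447 FPKM in Ctrl. The acinar-rich libraries were above the acinar-poor ones for each of these 3 genes in both groups. Galanin (Gal), a neuropeptide, was at 56.0, 66.9, 14.8 and 9.90 FPKM in Flox and at 5.03, 50.2, 63.1 and 2.44 FPKM in Ctrl. Relative to the median gene, the 12 differences ran from 2.05 to 2.72 within Flox and from 3.85 to 6.08 within Ctrl. Gm5771 and Amy2a4 belong to multigene families whose reads can be split between copies.

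At the other end, genes included Rgs1, Fos, Socs3, Rgs4, Gabbr2, Fcer1g, Hspa1a, Junb, Fosb, Klf2 and H4c17, several of them immediate early or stress genes. Fos, an immediate early transcription factor, was at 28.5, 11.8, 120 and 79.7 FPKM in Flox16, Flox17, Flox20 and Flox21, beside 123, 17.4, 20.6 and 156 FPKM in Ctrl1, Ctrl2, Ctrl3 and Ctrl5. Hspa1a, an inducible heat shock protein, was at 3.07, 5.39, 44.0 and 30.4 FPKM in Flox and at 183, 33.3, 28.4 and 340 FPKM in Ctrl. Flox16, which counted as acinar-poor, was next to Flox17 for Fos and below it for Hspa1a, so the Flox classes overlapped for Hspa1a.

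Across the 11506 genes outside the acinar lists, the within-Flox and within-Ctrl differences, which share no library, had a Spearman correlation of 0.19, and 56.1% of the genes were on the same side of the median in both. Genes are not independent replicates, and the points share the composition of each library.

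In the comparison by genotype, 3 of 17 genes of amino acid and creatine synthesis and transport and 1 of the 47 acinar genes were called higher in cKO. They were Tdh, Gamt and Slc38a5, and Slc30a2. The lists were chosen with earlier results of these data known, in which these genes led this comparison. These counts are therefore a description and no result about the lists. With limma on log2(FPKM + 0.5), 40 genes (0.339% of 11804 tested) were called higher and 115 (0.974%) lower in 4 cKO than in 4 Flox libraries, at a Benjamini-Hochberg adjusted p under 0.05 and a change over 1 on the log2 scale. The balance turned with the scaling, to 26 higher and 10 lower with median-of-ratios scaling and 40 higher and 5 lower with scaling to the non-acinar FPKM. None of the 24 enzymes was called with all 8 libraries, and Prss2 differed by 1.41 (SE 0.556, limma adjusted p = 0.112). Its adjusted p was under 0.05 in 1 of 8 fits with a library left out. The 3 libraries per group of the study's heatmaps leave out Flox17 and cKO8, and there 153 of 11794 genes were called higher. Of the 139 of these compared in both tables, 40 were in the acinar lists, beside 47 of all 11553. Of the 16 granule and membrane genes 1 was, the zinc transporter Slc30a2, which rose by 1.90 (SE 0.222, limma adjusted p = 0.000264), from 0.247, 0.96, 0.276 and 0.306 FPKM in Flox16, Flox17, Flox20 and Flox21 to 2.20, 3.45, 2.77 and 3.32 FPKM in cKO8, cKO9, cKO12 and cKO38. Gamt, the last enzyme of creatine synthesis, rose by 1.64 (SE 0.386, limma adjusted p = 0.0362), from 13.5, 33.5, 10.8 and 8.44 FPKM to 42.0, 56.2, 42.8 and 43.1 FPKM. Flox17 was the nearest Flox library to the cKO libraries for both genes. Smim38, which encodes a small membrane protein, rose by 1.97 (SE 0.494, limma adjusted p = 0.0447), from 5.37, 7.64, 1.81 and 1.42 FPKM to 11.0, 17.9, 14.7 and 14.8 FPKM. Single libraries decided many of these calls. In place of 155, 491 genes were called without Flox16, 507 without Flox17, 47 without Flox20, 44 without Flox21, 18 without cKO9 and 60 without cKO38. With 1 of the 8 libraries left out, the call was lost in 7 of 8 cases for Gamt, in 6 for Smim38 and in none for Slc30a2.

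These genes followed the acinar share in the control-virus libraries too, which carry no Cre by the study's methods. Gamt was at 7.55, 72.1, 109 and 8.71 FPKM, Smim38 at 1.86, 22.1, 21.8 and 1.92 FPKM and Slc30a2 at 0.185, 1.51, 1.47 and 0 FPKM in Ctrl1, Ctrl2, Ctrl3 and Ctrl5. Tdh, a threonine dehydrogenase, did not. It rose by 3.18 (SE 0.514, limma adjusted p = 0.0215) in cKO, from 0.0846, 1.61, 0.0798 and 0.04999 FPKM in the Flox libraries to 3.95, 11.0, 6.97 and 6.46 FPKM, but was at 0.0631 and 0.0699 FPKM in Ctrl2 and Ctrl3, beside 0.018 and 0.112 FPKM in Ctrl1 and Ctrl5, and its call was lost in 5 of 8 cases with a library left out. Flox17 and cKO8, at 37.8% and 38.7% acinar share, differed by genotype at nearly equal share. Their levels were 1.61 and 3.95 FPKM for Tdh, 0.96 and 2.20 FPKM for Slc30a2, 33.5 and 42.0 FPKM for Gamt and 7.64 and 11.0 FPKM for Smim38, with 1 library on each side and so no test.

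**Figure D4:**
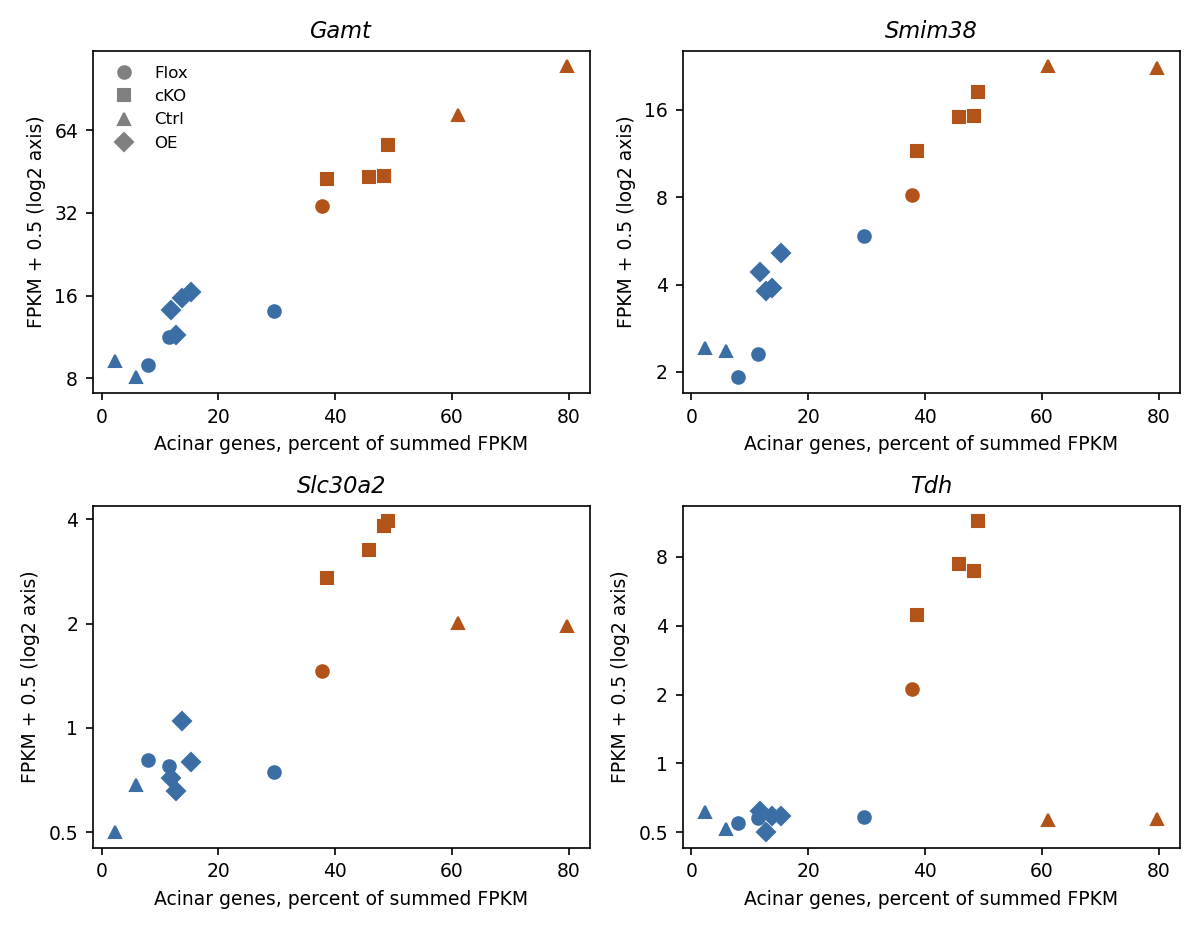
FPKM + 0.5 of 4 genes on a log2 axis against the acinar share of each library (circles Flox, squares cKO, triangles Ctrl, diamonds OE; brown acinar-rich, blue acinar-poor). Gamt and Smim38 are high in every acinar-rich library, whereas Tdh is at most 0.0699 FPKM in the brown triangles Ctrl2 and Ctrl3.

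The rich and poor control-virus libraries are none of those in the comparison by genotype. Of the 40 genes called higher in cKO, 31 were at 0.5 FPKM or more on average in both tables. Of these, 26 (83.9%) were higher in Ctrl2 and Ctrl3 than in Ctrl1 and Ctrl5 without overlap, beside a background of 3.18% of all genes. The HFD average included Ctrl2 and Ctrl3, and a gene could pass only through them. Slc30a2 did, at 1.51 and 1.47 FPKM there and between 0 and 0.545 FPKM in the other HFD libraries. Genes under the filter, such as Tdh, were not counted, so the share of higher genes is a description only. With median-of-ratios scaling of the genotype comparison it was 10 of 19 (52.6%), with 7 lower (36.8%), and of the genes called higher in cKO against Flox17 alone it was 4 of 127 (3.15%), with 109 lower (85.8%). On the deposited scale but relative to the median gene it was 27 of 31 (87.1%), beside 29.6%. Among them were the mucin Muc1 and the glutamine transporter Slc38a3, with differences of 3.18 and 3.97 on the log2 scale within Ctrl, both named after their values were seen. The other 5 genes, named after their values were seen, were Slc38a5 and Ccnb1, whose classes overlapped, and Nudt10, Ube2c and Gbp9, which were lower in Ctrl2 and Ctrl3. Ccnb1 and Ube2c act in mitosis. Of the genes called lower in cKO, 114 of 115 were in both tables, and 102 (89.5%) were lower in the acinar-rich Ctrl libraries, near the background of 92.3%. Relative to the median gene it was 37 (32.5%), beside 22.7%. Only 5 of the 114 were higher in Ctrl2 and Ctrl3, namely Reg3a, Aqp1, Dcn, Igfbp6 and Clec3b. Over 11506 genes outside the acinar lists, the cKO minus Flox difference and the Ctrl split had a Spearman correlation of 0.35, which became -0.03 with the acinar share in the model. The split was set on acinar RNA, and the share in the model also takes up part of the genotype. The fall therefore cannot tell genotype and acinar content apart.

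**Figure D5:**
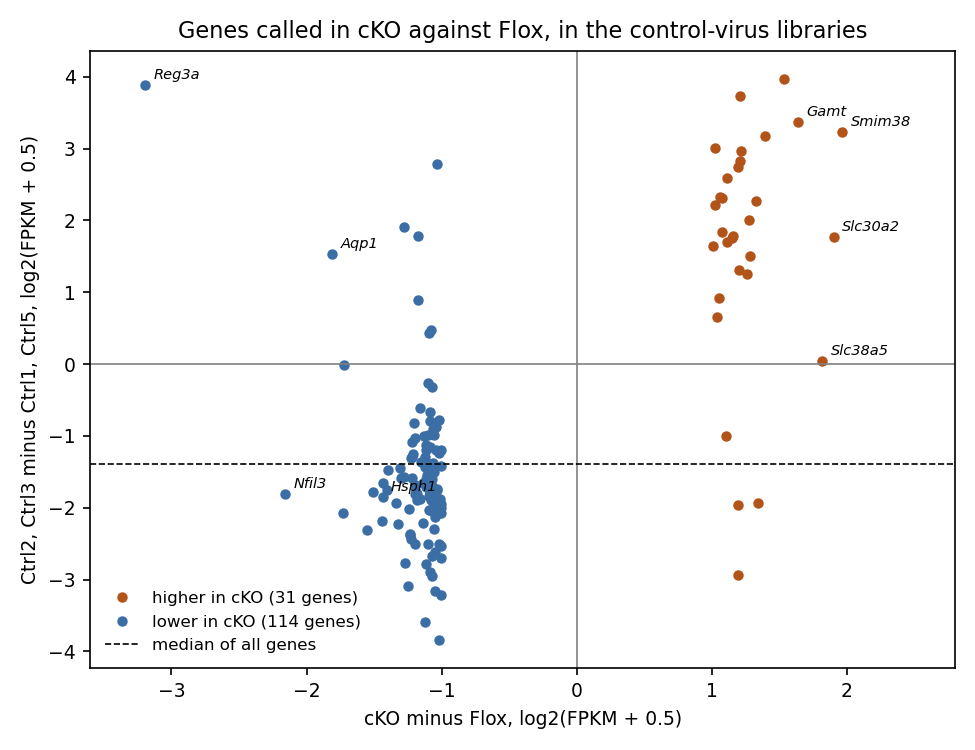
For genes called in cKO against Flox and present in both tables, the x axis gives the cKO minus Flox difference and the y axis the difference of Ctrl2 and Ctrl3 minus Ctrl1 and Ctrl5, both on log2(FPKM + 0.5). Most of the 31 genes higher in cKO (brown) lie above 0, and most of the 114 lower genes (blue) lie around the dashed median of all genes at -1.39.

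With the acinar share added to the model as a covariate, limma called 0 genes in either direction (0.0% of 11804) in cKO against Flox. Without adjustment, 40 genes were higher and 10 lower at p under 0.05 with a change over 1. Group and share overlap in few libraries, so the covariate also takes up part of the genotype. The differences were then 1.85 (SE 0.498) for Tdh, 1.55 (SE 0.664) for Tmem40, 1.31 (SE 0.285) for Slc30a2, 0.62 (SE 0.153) for Slc38a5, 0.44 (SE 0.295) for Gamt and 0.32 (SE 0.144) for Smim38, each with a limma adjusted p between 0.496 and 0.714. Against the acinar-rich Flox17 alone, the 4 cKO libraries had 178 genes called higher (1.53% of 11622) and 83 lower (0.714%), with the spread of the lone Flox library taken to equal that of the cKO libraries. That spread was not measured in the Flox arm, so genotype and the single library Flox17 cannot be told apart in these counts. The differences from Flox17 were 1.77 for Tdh, 1.22 for Slc30a2, 0.92 for the glutamine transporter Slc38a5 and 0.44 for Gamt, as a description.

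The comparison by virus was made between 4 acinar-poor OE libraries and a control group divided 2 against 2. Here limma called 4 genes higher (0.033% of 12132) and 0 lower (0.0%). Without adjustment, p was under 0.05 with a change over 1 for 560 higher and 53 lower genes. The called genes were Vtcn1, Ghrl, Prph and Vip, and all 4 were also called with the acinar share in the model. With the share, 50 genes were called higher (0.412%) and 209 lower (1.72%). Of the 50, 19 were in the acinar lists, whose summed level is the share in the model, so their calls are no independent result. Of the 209, 153 were in both tables and 96 (62.7%) were lower in Flox17, beside 72.6%. Among the 5 gained genes with the largest change, Gm5771 was higher by 2.52 (SE 0.278, limma adjusted p = 0.00653). Gm5771 is among the 12 genes outside the acinar lists that were highest with the acinar class in both groups. Its call is therefore no independent result either. Bcl2a1b, Mndal, Cox4i2 and Cd52 were lower by between -1.91 and -2.02, with limma adjusted p-values between 0.0202 and 0.046. Cd52, a leukocyte surface protein, was at 11.8, 4.54, 1.11 and 56.4 FPKM in Ctrl1, Ctrl2, Ctrl3 and Ctrl5 and at 3.02, 4.98, 5.45 and 6.76 FPKM in OE1 to OE4, so that the highest value was that of Ctrl5.

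Against the acinar-poor Ctrl1 and Ctrl5 alone, limma called 81 genes higher (0.658% of 12311) and 568 lower (4.61%) in the 4 OE libraries. Called higher were 22 of the 24 enzymes, with a median of 1.90, which is a description because the controls were chosen for low acinar RNA. Called lower were 11 of 12 macrophage, 10 of 11 endothelial and 7 of 11 fibroblast, stellate cell and pericyte genes. Their medians were -1.70, -1.13 and -1.19 against -0.21 for all genes. These counts are a description too, since both controls were chosen for low acinar RNA. Over all 4 Ctrl libraries, 0 of 12 macrophage, 0 of 11 endothelial and 0 of 12 fibroblast, stellate cell and pericyte genes were called. Macrophage genes summed to 0.338% of FPKM in Ctrl5 and to 0.0864% in Ctrl1. Of the beta cell genes 0 of 22 were called in this limma comparison. Ins2 differed by 0.15 (SE 0.431), as a description, whereas over all 4 Ctrl libraries it differed by 1.14 (SE 0.74, limma adjusted p = 0.591).

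Insulin was compared on whole-library FPKM and as a share of the FPKM outside the 47 listed acinar genes. On log2(FPKM + 0.5) of whole libraries, Ins2 fell by 0.72 in cKO (SE 0.116, limma adjusted p = 0.00744), a change under the size needed for a call. The median over all genes was -0.34 in that fit, and the fall of Ins2 was not taken relative to it. Ins2 differed by -0.32 (SE 0.157, limma adjusted p = 0.626) with the acinar share in the model and by -0.34 (SE 0.627, limma adjusted p = 0.767) with median-of-ratios scaling. Ins1 differed by -0.22 (SE 0.127, limma adjusted p = 0.184). Insulin transcripts made up 52.5% ± 3.02 (SD, n = 4) of the non-acinar FPKM in Flox and 47.6% ± 1.32 (SD, n = 4) in cKO, a difference of -4.82 percentage points (two-sided exact permutation p = 0.0571, 0.229 adjusted over 4 tests). In Ctrl the share was 38.7% ± 14.6 (SD, n = 4) and in OE 51.4% ± 1.73 (SD, n = 4), a difference of 12.6 percentage points (exact permutation p = 0.143, adjusted 0.286), which was 6.23 without Ctrl3 and 17.7 without Ctrl1. The Ctrl values were 54.0%, 44.6%, 19.5% and 36.9% in Ctrl1, Ctrl2, Ctrl3 and Ctrl5, so Ctrl3 was low even among the non-acinar transcripts. The log2 ratio of Gcg to insulin was -4.71 ± 0.61 (SD, n = 4) in Flox and -4.92 ± 0.12 (SD, n = 4) in cKO (exact permutation p = 0.657, adjusted 0.743). It was -4.00 ± 1.82 (SD, n = 4) in Ctrl and -3.54 ± 0.14 (SD, n = 4) in OE (exact permutation p = 0.743, adjusted 0.743). This difference of 0.46 was 0.0067 without Ctrl2, 0.038 without Ctrl3 and 1.31 without Ctrl5, and the cKO difference of -0.20 was 0.065 without Flox16 and -0.42 without Flox20. The smallest two-sided p that 4 against 4 libraries allow is 0.0286, and none of the 4 differences passed 0.05.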

How the data were processed

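RNA of hand-picked mouse islets was sequenced in 16 libraries, 4 each of Flox, cKO, Ctrl and OE. The authors deposited gene-level FPKM in 2 tables (17361 and 17318 genes, 16815 in both). The submitters' processing notes name mm10. The aligner, the counting tool and the number of reads are not given in the sources used here, so no interval for counting error is given. No 2 libraries of a table shared equal values (0 equal nonzero values).

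The members and gene lists were chosen with earlier results of these data known. Acinar-rich minus acinar-poor differences were means of log2(FPKM + 0.5), over genes averaging 0.5 FPKM or more in both tables, taken within a table and described without a test. Groups by label were compared within a table in R 4.3.3 with limma 3.58.1 (variance trend, robust empirical Bayes, Benjamini-Hochberg adjustment, all two-sided), and 4 ratios by exact permutation in scipy 1.17.1. The calling was tested on simulated data. Named genes were the markers, members of the lists with the highest mean FPKM or leading the labelled comparisons, the 12 genes at each end of the smaller of both within-group differences, and in each comparison the 5 genes with the largest change that gained or lost a call with the acinar share. A gene that the rule named is not reported here. Promoters came from RefSeq and gene positions from GENCODE M21, and matched by symbol. Alternatives were pseudocounts of 1 and 0.1, other filters and scalings, the acinar share, the replicate block, plain empirical Bayes, subsets of libraries and each library left out.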

Additional observations from a re-analysis of the deposited data

Results flagged for a closer look

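Among 92 sets of 4 libraries examined for 1 library far from the others, 9 were marked, and chance marks about 1 in 20. The gap to the nearest library, as a share of the whole range of the group, was 0.915 for the Ins2 to Ins1 ratio of Flox17, 0.955 for Tdh, 0.886 for Slc30a2 and 0.844 for Hsph1 in Flox17. It was 0.912 for Gamt in cKO9, 0.85 for Hsph1 in cKO8, 0.868 for Prph in cKO12, 0.891 for Prph in Ctrl1 and 1 for Vip in Ctrl1, where Vip was listed at 0 in the other Ctrl libraries. Flox17 is the only acinar-rich Flox library and carries 4 of these 9.

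For 4 of 136 named genes every acinar-rich library was above the acinar-poor ones within Flox and below them within Ctrl, a difference that was not tested. The log2 difference within Flox exceeded that within Ctrl by 4.67 for Ppy (pancreatic polypeptide), 1.91 for Ghrl (ghrelin), 2.17 for Lgals4 and 3.74 for Tff3. Ppy was at 778, 4432, 2990 and 3868 FPKM in Flox16, Flox17, Flox20 and Flox21, beside 2821, 1131, 283 and 16288 FPKM in Ctrl1, Ctrl2, Ctrl3 and Ctrl5.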

How the results depend on the processing

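The number of genes called in cKO against Flox, 155, was 84 with a pseudocount of 1 and 307 with 0.1, 0 with every gene above 0 FPKM (165 higher and 184 lower without adjustment), 36 with median-of-ratios scaling, 45 with scaling to FPKM outside the acinar lists, 0 with the acinar share, 268 with the replicate block, 272 without trend and robust fitting, 699 with the 3 libraries per group of the study's heatmaps and 261 against Flox17 alone. Leaving out each library in turn gave between 18 (without cKO9) and 507 (without Flox17). Higher calls were 40 of 155 in the deposited scale and 26 of 36 and 40 of 45 with the scalings. Of the genes called higher, 52.6% in place of 83.9% were higher in Ctrl2 and Ctrl3 with median-of-ratios scaling, and with the acinar share there was none to count. In OE against Ctrl the 4 calls became 10 with every gene above 0 FPKM, 8 with scaling to non-acinar FPKM, 259 with the acinar share, 649 against Ctrl1 and Ctrl5, 4 with the replicate block, and 4 to 5 with each library left out. Same-numbered cKO and Flox libraries had deviations correlated between -0.21 and 0.12, which does not show a pairing by number and cannot exclude one.

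The median difference of all genes became -0.016 within Flox, -0.017 within Ctrl and -0.034 over all libraries with median-of-ratios scaling, and -0.22, -0.15 and -0.066 with scaling to non-acinar FPKM, which recentre it by construction. With a library left out it was between -1.75 and -0.999 within Ctrl. Flox17 could not be left out within Flox. With the acinar share in the model the cKO difference turned to -0.34 for Prss2, -0.23 for Cpa1, -0.35 for Cela2a and 0.29 for Ins1 (0.17 with median-of-ratios scaling), and the OE difference to 1.27 for Prss2, 1.32 for Cpa1 and 1.28 for Cela2a. Left-out libraries moved the OE difference between -1.38 and 0.48 for Prss2, -1.26 and 0.54 for Cpa1, -1.09 and 0.55 for Cela2a and -1.50 and 0.21 for Cd52. The cKO difference of the Gcg to insulin ratio ran from -0.42 to 0.065, positive without Flox16. Apart from the design, the cause of these changes was not tested.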

Other observations

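The ratio of Ins2 to Ins1 was highest in the acinar-rich libraries within Flox and within Ctrl, and lowest of all in the acinar-rich cKO libraries. It was 2.62, 3.01, 2.64 and 2.60 in Flox16, Flox17, Flox20 and Flox21 and 1.96, 1.88, 1.89 and 1.93 in cKO8, cKO9, cKO12 and cKO38, without overlap between Flox and cKO. In Ctrl1, Ctrl2, Ctrl3 and Ctrl5 it was 2.55, 3.12, 3.97 and 2.66, and in OE1 to OE4 2.99, 2.69, 2.77 and 2.57. It was chosen after its values were seen and was not tested.

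Ngfr, a neurotrophin receptor of Schwann cells, was at 14.3, 0.066, 0.167 and 0.331 FPKM in Flox16, Flox17, Flox20 and Flox21, and between 4.87 and 9.70 FPKM in the cKO libraries, while Tmem40 was at 1.49, 0.019, 0.0178 and 0.0371 FPKM and at 2.62, 2.36, 2.32 and 2.84 FPKM. Flox16, not Flox17, was the Flox library nearest to cKO for both, which were singled out after their values were seen.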
